A study of Mus musculus with 24 samples.

Results

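Across 16 peak lists from injured mouse kidney, 398 of 497341 merged regions (0.0800%) recurred in at least 8 lists. They were found by joining all overlapping or touching peaks on chromosomes 1 to 19 and counting the lists that had a peak, by 1 bp or more, in each joined region. The regions were thus chosen by the number of lists with a peak, which is given here only as a description. The values tested or described beyond it are where the regions lie, how tall and wide their peaks are, how strong the local background is, and how the lists divide between antibodies and times.

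The lists come from CUT&RUN, in which an antibody tethers a nuclease that cuts out the DNA around its target. Sox9 is an HMG-box transcription factor switched on in injured kidney tubules, and H3K4me3 (histone H3 trimethylated at lysine 4) is a mark of active promoters. In such maps, positions that gather reads in any library, inputs included, are known mostly from repeats whose copies are collapsed or missing in the assembly, such as satellites, ribosomal and transfer RNA genes and nuclear copies of mitochondrial DNA. Published lists of such positions exist, and none was used here.

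The mice were male, 9 to 12 weeks old and 25 to 30 g, with bilateral ischaemia-reperfusion injury and tamoxifen given at injury. All carried Sox9IRES-CreERT2/+ and R26RtdT/+, so that a Cre driven from the Sox9 locus marked cells with Sox9 activity at injury, and their descendants, with tdTomato from the Rosa26 locus. Cells of this lineage were enriched by sorting from cortex and outer medulla 48 h or 10 days later, and pellets of about 100000 cells were fixed in 0.2% PFA and frozen. Each of the 8 pellets (4 biological replicates per time) was divided between a Sox9 antibody, an H3K4me3 antibody as positive control and an input, which gives groups of 4 lists: Sox9 10d, Sox9 48h, H3K4me3 10d and H3K4me3 48h. The titles give the time, since the cell type label names day 10 for all samples. The labels give no animal number per pellet, and no uninjured or unmarked cells are among the samples.

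The lists held 7379 to 84789 peaks on chromosomes 1 to 19. Sequencing depth is unknown. The deposited fold and p-value of a peak together give its pileup and its local background, and the pileups were whole multiples of a lowest height particular to each list, called a step here. In each list 92.5% to 97.7% of peaks stood at 1 step. Peak heights below are in steps and local backgrounds are in multiples of the median background of the same list. Of the genes altered in these mice, Sox9 (chr11:112782210-112787757) had 3 merged regions within 1000 bp, none in more than 3 lists. Gt(ROSA)26Sor, the noncoding gene of the reporter locus, had a recurrent region at chr6:113076034-113077107, present in 11 lists (4 Sox9 and 7 H3K4me3), with a median height of 3 steps and a background of 6.0. The same region lies within 1000 bp of an end of the protein-coding gene Setd5. The cells of origin cannot be checked from these regions, because of 91 marker genes of nephron, endothelial, stromal and immune cells 2 had a recurrent region in or within 10000 bp of the gene, and 0 had one at a gene end.

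Of the recurrent regions, 21 RefSeq promoter windows (250 bases before to 50 after an annotated start, GRCm38.p6) were overlapped, and 4 of them, chosen after their values were seen, are shown as examples in 15, 11, 10 and 9 lists, the last with more Sox9 than H3K4me3 lists (6 against 3). They are written 5′ to 3′ on the strand of the gene, with the bases inside the recurrent region in capitals. Gm40237 is a long noncoding RNA gene (chr4:118546889-118547188, plus strand), Ybx1 encodes a cold-shock-domain protein that binds RNA and DNA (chr4:119294464-119294763, minus strand), Myl4 encodes a myosin light chain (chr11:104550413-104550712, plus strand) and Tmem116 a transmembrane protein (chr5:121452459-121452758, plus strand).
Gm40237: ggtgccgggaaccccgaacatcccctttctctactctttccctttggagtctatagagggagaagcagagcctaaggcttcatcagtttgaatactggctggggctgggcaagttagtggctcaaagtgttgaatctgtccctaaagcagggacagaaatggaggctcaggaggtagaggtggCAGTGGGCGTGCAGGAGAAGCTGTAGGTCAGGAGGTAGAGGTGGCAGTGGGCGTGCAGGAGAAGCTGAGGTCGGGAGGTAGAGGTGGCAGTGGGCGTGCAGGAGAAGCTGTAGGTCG
Ybx1: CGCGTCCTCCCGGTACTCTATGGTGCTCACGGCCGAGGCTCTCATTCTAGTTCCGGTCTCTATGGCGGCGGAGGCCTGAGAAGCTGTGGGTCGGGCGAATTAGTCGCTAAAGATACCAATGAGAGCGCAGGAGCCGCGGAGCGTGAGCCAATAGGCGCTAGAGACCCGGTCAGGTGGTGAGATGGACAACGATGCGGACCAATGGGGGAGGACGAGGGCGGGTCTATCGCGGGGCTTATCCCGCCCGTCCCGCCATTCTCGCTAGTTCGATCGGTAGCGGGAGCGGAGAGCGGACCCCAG
Myl4: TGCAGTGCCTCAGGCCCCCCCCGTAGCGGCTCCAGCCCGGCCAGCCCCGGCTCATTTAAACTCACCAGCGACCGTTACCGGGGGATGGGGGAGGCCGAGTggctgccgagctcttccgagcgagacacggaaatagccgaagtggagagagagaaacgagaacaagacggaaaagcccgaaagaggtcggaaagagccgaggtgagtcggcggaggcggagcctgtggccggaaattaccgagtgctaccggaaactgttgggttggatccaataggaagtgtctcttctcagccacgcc
Tmem116: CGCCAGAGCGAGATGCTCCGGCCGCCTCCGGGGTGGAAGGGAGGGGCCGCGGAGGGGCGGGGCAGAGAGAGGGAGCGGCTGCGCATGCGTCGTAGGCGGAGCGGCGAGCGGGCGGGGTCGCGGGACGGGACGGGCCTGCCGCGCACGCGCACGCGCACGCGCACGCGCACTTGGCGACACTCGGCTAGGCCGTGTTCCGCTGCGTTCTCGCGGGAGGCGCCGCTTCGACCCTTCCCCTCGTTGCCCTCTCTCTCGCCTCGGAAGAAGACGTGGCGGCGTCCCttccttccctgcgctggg

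The Gm40237 window carried a stretch of 43 bases that occurs 2 times in it without overlap, from positions 170 and 257 of the window. In the Ybx1 window the longest such repeat was 8 bases and in the Tmem116 window 13 bases, and the Myl4 window had none of 8 bases or more. The Ybx1 window held 32 CpG, the Myl4 window 25 and the Tmem116 window 48, against 7 in the Gm40237 window. Over the 21 windows with a recurrent region the median was 26 CpG and 63.0% G or C, against 7 CpG and 53.0% over all 31396 windows on these chromosomes. The Sox core motif ACAAAG was found on either strand in 2 of the 21 windows (9.52%) and in 18.6% of all windows, and ACAATG in 1 (4.76%) and in 12.2%. The GC box GGGCGG was found in 13 windows (61.9%) against 36.0% of all, CCAAT in 8 (38.1%) against 37.3%, and TATAAA in 1 (4.76%) against 13.6%. A match describes letters and is not a bound site. With 21 windows the counts are small, their G or C content differs from that of all windows, and no motif difference was tested.

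Of 2 microRNA genes overlapped, Mir7025 lies within Pdgfra, a gene described below for its 8 recurrent regions. The mature 5p sequence (chr5:75176836-75176859, plus strand) is shown with its seed, bases 2 to 8, in capitals.
mmu-miR-7025-5p: cGUGAGCUgaagcugguggcuccc

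Most merged regions belonged to a single library, and the number fell steeply with the number of lists. Of the regions 460526 (92.6%) were in 1 list, 167 in 7, 119 in 8, 61 in 9 and 35 in all 16. The recurrent regions held 5321 of 551517 peaks (0.965%), but 677 of the 827 peaks of 10 steps or more (81.9%). Of the peaks inside them 43.5% stood at 1 step, against 95.8% of all peaks. On either side of the threshold, regions in 8 lists had a median width of 652 bp and those in 7 lists 628 bp, with a median height of 1 step in both. Their median background was 8.58 and 6.96.

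**Figure D1:**
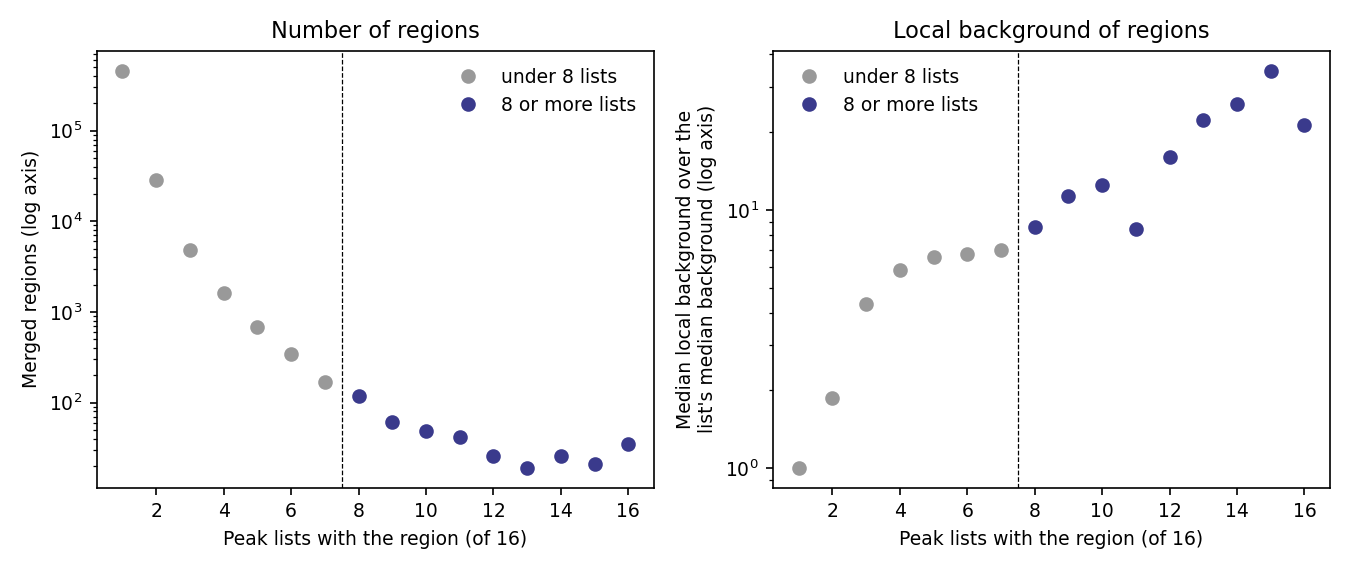
Merged regions by the number of peak lists that hold them (left, log axis) and their median local background over the median of the list (right, log axis); the dashed line is the threshold of 8 lists. The number of regions falls from 460526 in 1 list to 35 in 16, and the background rises from 1.00 in 1 list to 34.6 in 15.

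Local background was higher in regions of more lists. A peak caller takes it from the control library, here the input of the same pellet, and the rule did not use it, though the call of each peak does. Its median was 1.00 for regions in 1 list, 4.33 in 3, 34.6 in 15 and 21.4 in 16. Of the recurrent regions 34 had a background of 2 or less, 140 between 2 and 10, 206 between 10 and 100 and 18 above 100. A background above 2 was found for 91.5% of recurrent regions and for 19.5% of all merged regions.

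Promoters were most frequent at intermediate recurrence. The share of regions whose midpoint was within 1000 bp of an annotated start of a protein-coding gene was 3.65% in 1 list, 37.1% in 4, 24.2% in 7 and 12.1% in 8. Over the recurrent regions on chromosomes with annotated starts it was 6.51% (25 of 384), against 4.69% of all merged regions, and among those in 12 or more lists 1.61% (2 of 124). Protein-coding genes held the midpoint of 42.0% of recurrent regions and of 47.8% of all merged regions, and 175 recurrent regions overlapped no gene of any kind. The 25 at a start had a median background of 8.58, heights of at most 12 steps in the median and 3.56 Sox9 against 5.60 H3K4me3 lists on average.

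In width the recurrent regions ran from 121 to 32909 bp, with a median of 738 bp (quartiles 463.5 and 1139.5), against 136 bp over all merged regions, and joining more lists can only widen a region. They lay on all 19 chromosomes, from 0.426 per 1000 merged regions on chromosome 7 to 1.15 on chromosome 11. In the first 5 Mb of a chromosome, next to the centromere in the mouse, lay 48 (12.1%) of them and 1.64% of all merged regions.

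Presence in all 16 lists was reached by 35 regions, of which chr2:98666560-98667323 was by far the tallest. No gene overlaps it. Its height was 3116, 428, 509 and 1229 steps in the Sox9 10d lists, 475, 757, 443 and 442 in Sox9 48h, 2026, 827, 2010 and 755 in H3K4me3 10d and 957, 909, 1000 and 691 in H3K4me3 48h. The antibodies overlapped throughout. Its background was 19124 times the median, and the neighbour at chr2:98662239-98662974, in 15 lists, had 2800 times. The next tallest were in Gm34259, a long noncoding RNA gene, at chr17:4626159-4626611 (median 96.5 steps) and outside genes at chr11:25100071-25100208 (78.5) and chr8:89754999-89755192 (31.0).

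**Figure D2:**
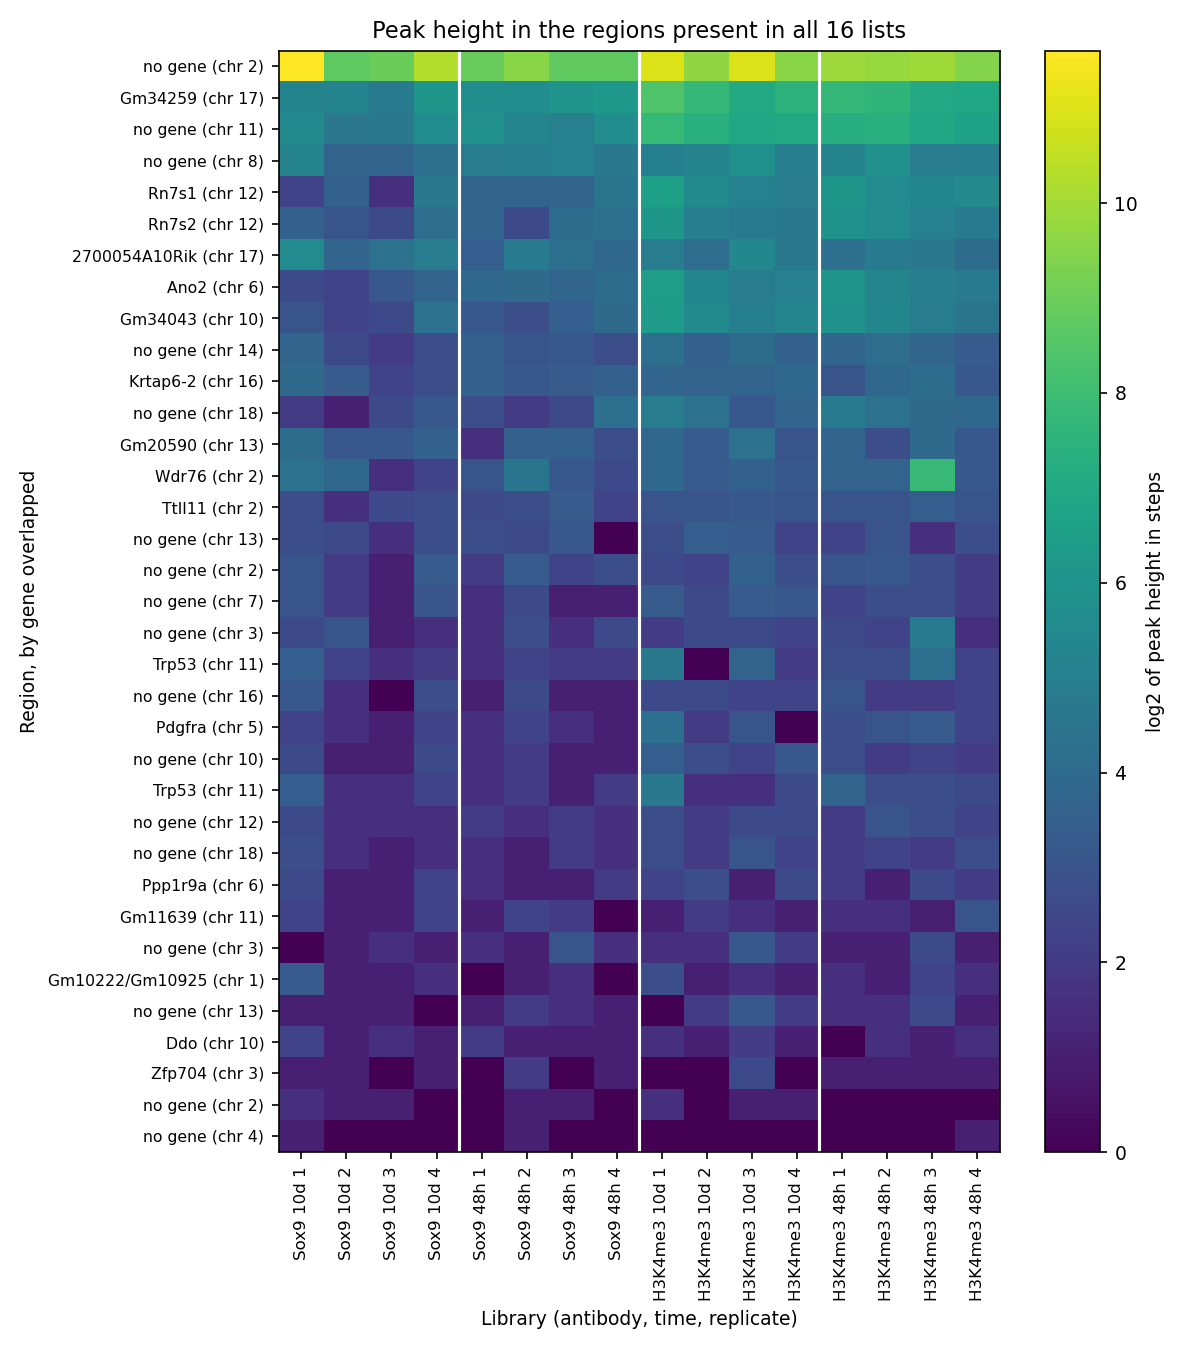
Peak height (log2 of steps, colour) of the 35 regions present in every list, ordered by median height, in the 16 libraries. Gm34259, Rn7s1, Rn7s2, Ano2, Gm34043 and a region of chromosome 11 are taller in all 8 H3K4me3 libraries than in all 8 Sox9 libraries, and the region of chromosome 2 at the top is not.

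Of these 35 regions, 6 were taller in every H3K4me3 library than in any Sox9 library. They were also the 6 of the 1594 merged regions in 5 or more lists (0.376%) with that separation, and 0 (0%) of the 1594 were separated the other way. The local backgrounds of the 6 ran from 11.9 at Gm34043 to 54.5 at chr11:25100071-25100208. The median over all 35 regions was 21.4. The 6 include both 7SL RNA genes, Rn7s1 and Rn7s2, whose RNA is the scaffold of the signal recognition particle and is made by RNA polymerase III. At Rn7s1 (chr12:69159292-69159594, within 1000 bp of the ribosomal protein gene Rps29) the heights were 5, 12, 3 and 26 steps in Sox9 10d, 13, 13, 13 and 23 in Sox9 48h, 93, 45, 34 and 29 in H3K4me3 10d and 70, 49, 40 and 44 in H3K4me3 48h. Rn7s2 (chr12:69361165-69361481) had 6 to 19 steps with Sox9 (median 12.5) and 26 to 70 with H3K4me3 (median 32).

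The other 4 were at noncoding genes, in an ion channel gene and outside genes. At Gm34043 (chr10:83954475-83954673), another long noncoding RNA gene, the heights were 8, 5, 6 and 20 steps in Sox9 10d, 9, 7, 11 and 16 in Sox9 48h, 86, 45, 32 and 39 in H3K4me3 10d and 60, 40, 30 and 23 in H3K4me3 48h. Inside Ano2, which encodes a calcium-activated chloride channel, the region chr6:125876905-125877257 had 5 to 17 steps with Sox9 and 28 to 92 with H3K4me3. Gm34259 had 27 to 74 and 119 to 341, and chr11:25100071-25100208 had 24 to 56 and 101 to 219. None of the 4 is within 1000 bp of an end of a protein-coding gene.

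Each of the 6 passed an exact permutation test of log2(steps + 1), 8 against 8 libraries, with Benjamini-Hochberg adjustment over the 1594 regions (two-sided p = 0.000155, the smallest the test can give, adjusted p = 0.0413). The ratio of geometric mean heights ran from 3.39 at Rn7s2 to 4.44 at Gm34043, and H3K4me3 was higher in 8 of 8 pellets at each. Over all 35 regions that ratio had a median of 1.59 (0.841 to 4.44), and steps move with the depth of a library. Heights were also divided by the geometric mean of the 35 regions in each library, which was itself 0.77 higher on the log2 scale with H3K4me3. The 35 include the 6, so this division takes away part of their own difference, and the part of depth was not tested. After it the log2 differences of the 6 were 0.93 to 1.30, 0 were separated and 0 passed (smallest adjusted p = 0.354, permutation test). Nor did any region pass with the pellet as a block, where the smallest p that 8 pellets can give, 0.00781, is too large for so few of 1594 regions to pass (adjusted p = 0.664, exact permutation). None passed with any 1 pellet left out either, where 6 to 9 regions were still separated and the smallest p is again too large for their number. At an unadjusted p under 0.05, 134 of the 1594 regions (8.41%) were taller with H3K4me3, among them 66 recurrent regions (16.6%), and 2 (0.125%) with Sox9, among them 1 recurrent region (0.251%). A list with no peak entered the tests over the 1594 regions as 0 steps. Outside the 35 regions these counts therefore also take in presence, which chose the regions, and are not a result on height alone. No region passed between 10d and 48h (smallest adjusted p = 1.00, permutation test, with 49 of 1594 at an unadjusted p under 0.05). The test was chosen after the heights were seen.

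Pdgfra, the receptor tyrosine kinase for PDGF-A and PDGF-C that marks mesenchymal cells and fibroblasts, held 8 recurrent regions within its 46885 bp (chr5:75151322-75198206), more than any other protein-coding gene except Sfi1. Their backgrounds were 0.822 to 3.07, against a median of 11.4 over all recurrent regions. Of the 26 merged regions inside the gene, the 4 within 10 kb of its start were in 1 list each, and the centres of the recurrent ones lay 12.4 to 41.2 kb from the start. They were 176 to 468 bp wide. The neighbouring receptor genes Kit and Kdr had 23 and 16 merged regions within 1000 bp, none in more than 2 lists.

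Of the Pdgfra regions, 2 were in 15 or more lists. At chr5:75170491-75170958, in all 16 lists, the heights were 5, 3, 2 and 5 steps in Sox9 10d, 3, 5, 3 and 2 in Sox9 48h, 19, 4, 8 and 1 in H3K4me3 10d and 7, 8, 10 and 5 in H3K4me3 48h. At chr5:75166505-75166777, in 15 lists, they were 9, 5, 2 and 2, then 2, 5, none and 3, then 25, 3, 3 and 4, and then 8, 10, 13 and 6 in the same order of libraries. H3K4me3 10d replicate 1 was the tallest of the 16 at each of the 8 regions. The 8 regions had 3 to 8 Sox9 lists and 3 to 8 H3K4me3 lists each. The region with mir-7025 (chr5:75176667-75176865) was in 4 Sox9 and 7 H3K4me3 lists, with a median height of 5 steps, and the next, chr5:75177638-75178065, was in 3 and 8.

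**Figure D3:**
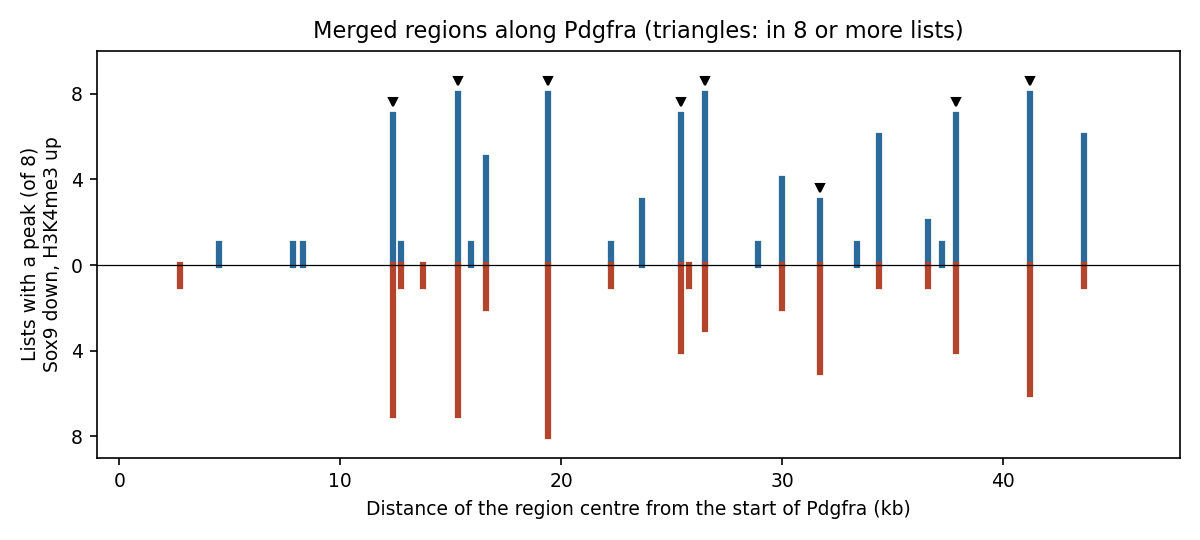
Merged regions along Pdgfra by the distance of their centre from the start of the gene (kb), with the number of H3K4me3 lists upward and of Sox9 lists downward (8 each); triangles mark regions in 8 or more lists. The 8 recurrent regions lie between 12.4 and 41.2 kb.

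Trp53, which encodes the tumour suppressor p53, and its pseudogene Trp53-ps on another chromosome were both recurrent. Their backgrounds were below the median of 11.4 over all recurrent regions. Within Trp53 (chr11:69580348-69591873) the regions chr11:69586888-69587635 and chr11:69588310-69589866 were in all 16 lists, with backgrounds of 2.06 and 3.51. The first had 11, 3, 3 and 5 steps in Sox9 10d, 3, 4, 2 and 4 in Sox9 48h, 25, 3, 3 and 6 in H3K4me3 10d and 14, 7, 7 and 6 in H3K4me3 48h. The second had 11, 5, 3 and 4, then 3, 5, 4 and 4, then 25, 1, 13 and 4, and then 7, 7, 19 and 5. In both, replicate 1 at 10d was the tallest within each antibody, and the antibodies overlapped (adjusted p = 0.735 and 0.847, permutation test). Trp53-ps (chr17:54419597-54421236) had 1172 bp, 71.5% of its length, in a region of 15 lists with a median height of 4 steps and a background of 2.12. Reads from the gene and its pseudogene may not be separable, and how the authors treated reads with several matches is not given in the sources used here.

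**Figure D4:**
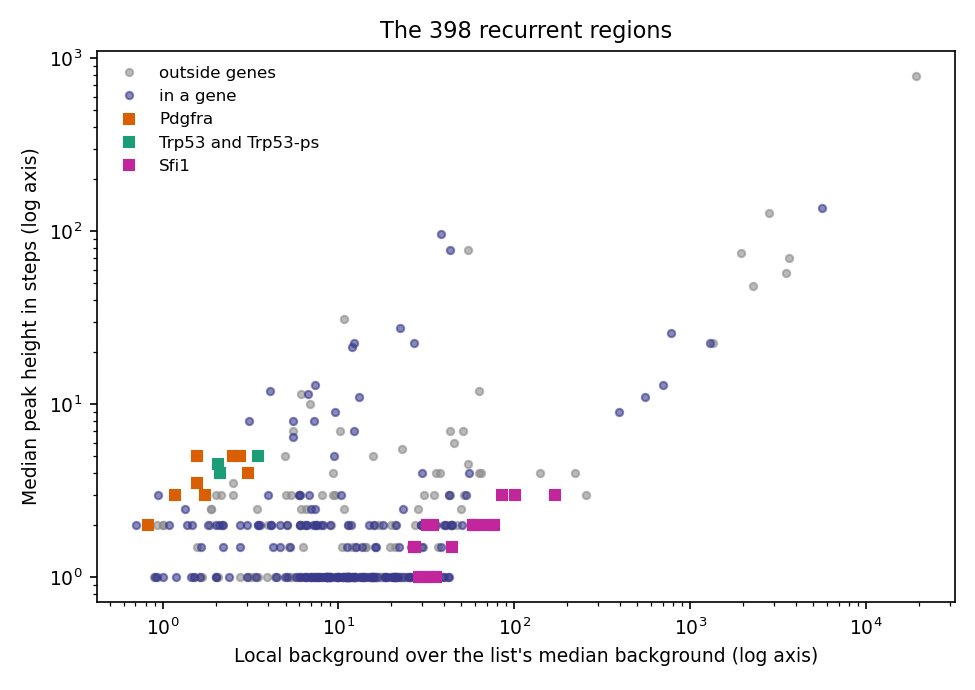
Median peak height (steps, log axis) of the 398 recurrent regions against their local background over the median of the list (log axis), by whether they overlap a gene, with Pdgfra, Trp53 and Sfi1 marked. Pdgfra and Trp53 regions sit at backgrounds of 0.822 to 3.51 and Sfi1 regions at 27.0 to 170.1.

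Recurrent regions often stood in runs. Joined at gaps of up to 50000 bp, 84 of them (21.1%) fell in 13 runs of 3 or more. The longest run, 21 regions at chr11:3100030-3197030, covered Pisd-ps1 and Sfi1, the gene of a centrosomal protein, with a median background of 44.2 and heights of at most 3 steps in the median. Runs of 10 and 9 regions at chr6:47655136-47686558 and chr6:47739501-47768442 lay over predicted genes, beside Rn4.5s, with backgrounds of 37.9 and 40.0. A run of 4 regions at chr10:58223642-58237452 covered Duxf3, a double homeobox gene of a repeated array, with a background of 32.1. The widest region, chr9:3005390-3038298 (32909 bp, 14 lists, background 1945), held no gene, and neither did its neighbour chr9:3000036-3005112 or chr16:3233421-3238455.

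Small RNA genes, microRNAs included, overlapped 6 regions (1.51%, against 0.169% of all merged regions, which are narrower and so overlap less), 2 of them in 16 lists. The 6 averaged 6.0 Sox9 and 7.0 H3K4me3 lists. Beside the 7SL genes and Mir7025 they are transfer RNA genes at chr1:171064370-171065360 (13 lists, with Mir6546 and an end of Fcgr3) and chr1:171072249-171074227 (13 lists), and the 5S ribosomal RNA gene n-R5s149 at chr8:123621929-123623088 (9 lists). Their median background was 23.6. Pseudogenes overlapped 24 regions (6.03%, against 1.44% of all merged regions), among them Gm10222 and Gm10925 at chr1:24611535-24616183, in 16 lists at a median of 2.5 steps.

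At the ends of protein-coding genes (any base within 1000 bp) the regions in the most lists were those of Rps29, beside Rn7s1, and of Krtap6-2, a keratin-associated protein of hair. At Krtap6-2 (chr16:89419708-89420059, 16 lists, background 4.05) the heights were 16, 10, 5 and 7 steps in Sox9 10d, 12, 9, 10 and 12 in Sox9 48h, 14, 13, 13 and 15 in H3K4me3 10d and 8, 15, 17 and 9 in H3K4me3 48h, and the antibodies overlapped. Wls, the carrier of Wnt ligands to the cell surface, had a region in 15 lists beyond its end (median 3 steps, background 52.0). Yap1, the transcriptional effector of the Hippo pathway, had one in 11 lists (4 Sox9 and 7 H3K4me3). Its heights were 3 and 3 steps in 2 of the Sox9 10d lists, 5 and 4 in 2 of Sox9 48h, 5, 8 and 4 in 3 of H3K4me3 10d and 12, 8, 18 and 4 in H3K4me3 48h. H2bc21 and its neighbours H2ac20 and H2ac21, replication-dependent histone genes, shared one in 10 lists (median 3 steps), H2-K1, a class I histocompatibility gene, in 11 (median 2) and Cdc27, a subunit of the anaphase-promoting complex next to Myl4, in 10 (median 6.5, with 3 Sox9 and 7 H3K4me3 lists).

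Most promoter windows were reached at the lower end of recurrence. The Ybx1 window, in 11 lists, had 1 step in its 4 Sox9 lists and 1 to 6 in its 7 H3K4me3 lists. The windows of Lrrc8d, a subunit of a volume-regulated anion channel, Scamp1, a carrier protein of secretory membranes, Sp110, a nuclear body protein, and Tmem116 were in 9 lists, each at a median of 1 step. Of the 21 windows 12 were in 8 lists, among them those of Fkbp5, a glucocorticoid-induced chaperone partner, Dusp5, a phosphatase of ERK, Pgam1 of glycolysis and Rab1a of vesicle transport.

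A recurrent region at a gene was rare whatever the gene. Of 20665 protein-coding genes on these chromosomes 0.271% had one at an end and 1.07% in or within 10000 bp. At gene ends there were 1 of 25 ribosomal protein genes (Rps29), 1 of 15 histone genes (H2ac21), 1 of 23 Wnt genes (Wls) and 2 of 17 Hippo genes (Yap1 and Mob1b, a co-activator of the LATS kinases). There were 0 of 17 Sox genes, 0 of 11 cartilage targets of Sox9, 0 of 15 kidney transcription factors, 0 of 15 injured-tubule genes, 0 of 15 proximal tubule genes and 0 of 17 immediate early and stress genes, also with 10000 bp of flank, and at the shares over all genes a 0 in lists of this size shows nothing particular to them. The marker genes with one in the body or its flank were the stromal genes Pdgfra and Tagln, the latter a smooth muscle protein (the region lies in its neighbour Sidt2, chr9:45944030-45944264, 8 lists, median 1 step, background 20.2).

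Regions of low background are given for their genes. The 34 with a background of 2 or less had a median height of 2 steps and a median width of 508.5 bp, 0 of 32 had their midpoint within 1000 bp of a start (against 6.51% of all recurrent and 4.69% of all merged regions, shares too low to read a difference from 32), and 19 (55.9%) had it in a protein-coding gene. They include regions in Slc4a1ap (12 lists), Faxc, Gpc5, a cell-surface proteoglycan, and Glis3, a zinc-finger transcription factor active in kidney (11 lists each), Utrn, the dystrophin relative utrophin, and Sos2, an exchange factor for Ras (10 lists each), and Dnmt3a, a DNA methyltransferase (8 lists). These were chosen after their values were seen.

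Every recurrent region was present with both antibodies and at both times. With 8 lists of each, a region in more than 8 lists must be, so only the 119 regions in 8 lists could have differed. Peaks in all 4 groups were found for 360 regions. On average a region had 4.69 Sox9 and 5.99 H3K4me3 lists of 8. H3K4me3 lists were more for 235 regions, Sox9 lists for 47, and 116 had as many of each. As percentages these are 59.0% and 11.8%, against 66.1% and 19.6% of the 1594 regions in 5 or more lists, where an odd number of lists cannot tie. H3K4me3 in 8 of 8 lists was found for 83 regions and Sox9 in 8 of 8 for 42, and both counts include the 35 regions in all 16 lists. Lists at 10d were more for 179 regions and at 48h for 103, 45.0% and 25.9% against 54.7% and 29.7%.

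Per library, the recurrent regions with a peak numbered 305, 198, 204 and 276 in Sox9 10d, 169, 260, 235 and 218 in Sox9 48h, 346, 284, 322 and 294 in H3K4me3 10d and 270, 310, 301 and 259 in H3K4me3 48h. The H3K4me3 lists were higher in 8 of 8 pellets, and the groups overlapped. The means were 298.2 ± 28.2 for H3K4me3 and 233.1 ± 45.0 for Sox9 (SD, n = 8 each), a difference of 65.1. Presence in these lists chose the regions, so the counts are a description with no test. The difference was 65.8 at 10d and 64.5 at 48h, and 56.1 to 76.4 with 1 pellet left out. List length moved with it: the H3K4me3 lists had 42116 ± 22639 peaks and the Sox9 lists 26824 ± 23925 (SD, n = 8 each), and the part of length in the difference was not tested. With each list reduced to its 7379 best peaks by p, 93 regions recurred and the difference was 15.2, and with 7379 drawn at random 11 recurred and it was -1.0. Among peaks of 1 step p ranks only by low background.

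**Figure D5:**
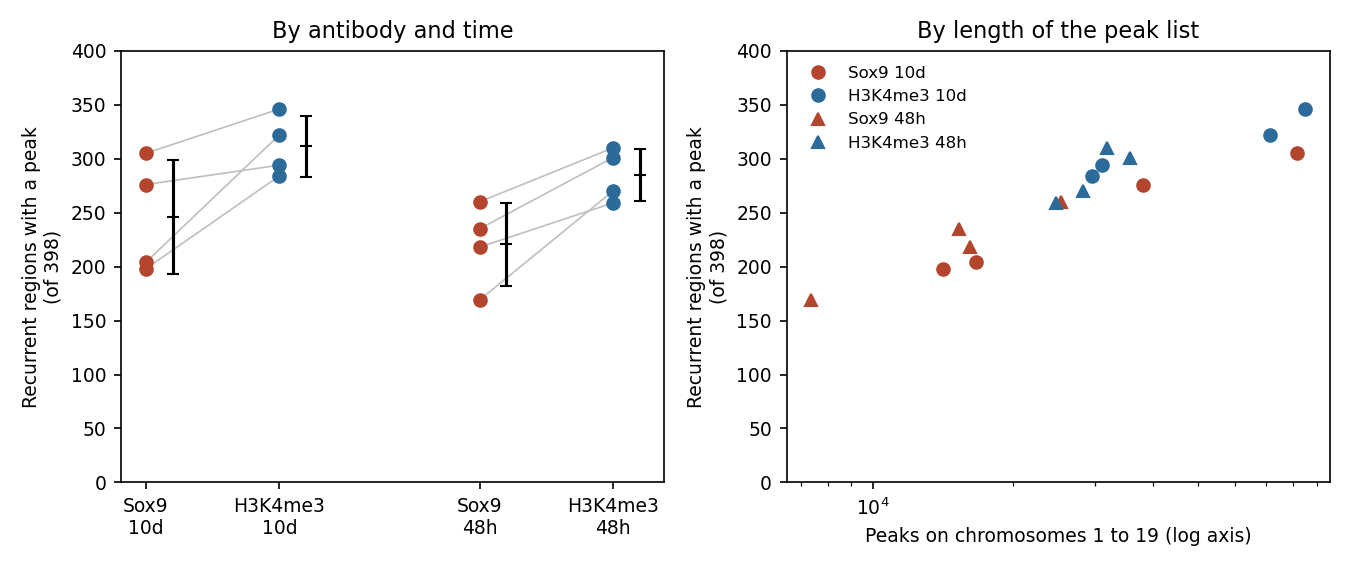
Recurrent regions with a peak in each of the 16 lists, by antibody and time (left; points are libraries, lines join the 2 libraries of a pellet, bars are mean ± SD of 4) and against the length of the list (right, log axis). Every H3K4me3 library is above the Sox9 library of its pellet. The number is 169 in the shortest list and 346 in the longest, without a steady rise between them. Sox9 10d replicate 1 has 305 at 81519 peaks and H3K4me3 48h replicate 2 has 310 at 31808.

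As a percentage of the peaks in a list, the recurrent regions held 1.49% ± 0.629 with Sox9 and 1.04% ± 0.298 with H3K4me3 (SD, n = 8 each), a difference of -0.456, also given with no test. Reduced to 7379 peaks by p, the direction turned and the difference was 0.247. The median height of their peaks was 2.00 steps in every H3K4me3 list and 1 or 2 in the Sox9 lists (mean 1.50; exact permutation p = 0.0769, adjusted p = 0.344). With geometric means in place of medians, chosen after the data were seen, it was 2.64 ± 0.277 against 2.23 ± 0.181 steps (SD, n = 8 each), a difference of 0.408 (exact permutation p = 0.00513, adjusted p = 0.0423). That adjusted p rests on the presence comparison adjusted with it, which is given without p. Steps move with depth, and these means were not scaled for it. The median height, which was planned, did not pass. The median width of the peaks in recurrent regions was 270 ± 19.5 bp with H3K4me3 and 252 ± 18.8 bp with Sox9 (SD, n = 8 each; exact permutation p = 0.0861, adjusted p = 0.344). It was wider with H3K4me3 in 7 of 8 pellets (exact permutation with the pellet as a block, p = 0.0234, adjusted p = 0.188). Over all peaks of a list the median width went the other way, 135 ± 6.58 bp with H3K4me3 and 143 ± 13.4 bp with Sox9 (SD, n = 8 each).

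By time, Sox9 lists held 246 ± 53.1 recurrent regions at 10d and 220 ± 38.4 at 48h (SD, n = 4 each), and H3K4me3 lists 312 ± 28.1 and 285 ± 24.4 (SD, n = 4 each). With 1 pellet left out the difference of 25.2 for Sox9 ran from 1.58 to 42.1, and that of 26.5 for H3K4me3 from 11.0 to 40.7. Peak height and width did not pass between the times for either antibody (lowest exact permutation p = 0.286, adjusted p = 0.559), nor did their antibody differences between times (lowest exact permutation p = 0.229, adjusted p = 0.522). The smallest p that 4 against 4 libraries can give is 0.0286, before adjustment.

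Region by region, 0 recurrent regions passed Fisher's exact test of lists by antibody or by time after adjustment over all 497341 merged regions (0.0% called), which even a split of 8 against 0 could not pass (p = 0.000155). At an unadjusted p under 0.05, 18 recurrent regions had more H3K4me3 lists, 4.52% against 5.21% of the regions in 5 or more lists and 0.0167% of all, and 1 had more Sox9 lists (0.251% against 0.125%, and 0.000402% of all). The rule used the number of lists and not its split, but presence chose both sets of regions, so the splits are a description. Those toward H3K4me3 included 7 lists against 1 at the noncoding gene D130079A08Rik (chr14:104336947-104337069, heights 23 to 127 steps, background 43.2). The split was also 7 against 1 at Pou3f3, a POU-domain gene of the developing nephron (chr1:42696668-42697405, background 8.0), and 8 against 2 in Sos2 (background 1.19). The split toward Sox9 was 8 against 2 beside Anxa3, an annexin (chr5:96846450-96847557, background 13.4, at most 2 steps). By time, 4 regions had more 10d lists (1.01% against 1.82%, and 0.00583% of all) and 1 had more 48h lists (0.251% against 0.251%, and 0.000804% of all). The shares by time are at or below those of the regions in 5 or more lists.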

How the data were processed

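Sox9 and H3K4me3 libraries of 8 pellets gave 16 peak lists, and inputs entered only as controls. Their names pair every library with its own pellet's input. The submitters' processing notes name MACS3, Bowtie, Bowtie2, Partek 10 and mm10, with no role or order. Filters, duplicates, scaling, multiple matches and the peak threshold are not given in the sources used here.

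The deposited lists give, per peak, a fold enrichment of pileup over local background (the authors' ratio), and p and q as −log10 values from the authors' caller. Assuming that 1 was added to pileup and background in the fold and that p is a Poisson tail, both were solved for 100% of peaks. In each list 99.8% to 100% of heights lay within 0.05 of whole steps (1 step was a pileup of 60.1 to 508). A region's height in a list is its tallest peak. Heights move with depth, which is unknown, so precision rests on the replicates.

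Gene positions and promoter windows are from RefSeq tables of GRCm38.p6, the assembly of mm10, which gave no exons. Starts on chromosome 18 were not used here.

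Mean differences between groups of libraries were tested by exact permutation (two-sided), 16 tests adjusted by the Benjamini-Hochberg method, of which the 8 on presence, which chose the regions, are given without p. Single regions were tested by Fisher's exact test over all regions and, chosen after the data were seen, by exact permutation of log2(steps + 1) over regions in 5 or more lists. Positions, gene lists and motifs have no test. Named were the 10 tallest regions in 16 lists, up to 20 at protein-coding gene ends, 10 at noncoding genes, 5 per direction by antibody and time, the 3 widest, and genes of 19 lists with a region, of which those that matter are given. Others named were chosen after their values were seen. The regions and lists were chosen with earlier results of these data known. Libraries of 1 pellet are paired by the labels, and their deviations in presence from group means correlated between -0.0911 and 0.103. Methods were tested on simulated data. The simulated heights had larger means than the lists and only Poisson spread. The height test was thus not tried on data with as many low or missing heights. The alternatives are listed in the closing section. Computation used SciPy 1.17.1, pandas 2.3.3, Matplotlib 3.10.9, NumPy 2.4.6 and Python 3.11.15.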

Additional observations from a re-analysis of the deposited data

Results flagged for a closer look

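Outside chromosomes 1 to 19, 22 merged regions of chromosome X and 10 of chromosome Y were in 8 or more lists, a signal in data that the comparisons leave out. Of those on X 2 were in all 16 lists, and none of those on Y. Their median background was 12.6 on X and 15.0 on Y, against 11.4 for the 398 recurrent regions of the other chromosomes.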

How the results depend on the processing

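The number of recurrent regions was 911 at 6 or more lists, 127 at 12 or more and 35 at 16. It was 133 from peaks of 2 or more steps, 104 where peaks had to cover 50% of a region, 232 when summits within 100 bp were joined, 93 with lists of equal length by p and 11 with equal length at random. A window of 3000 bp put the midpoint of 18.8% of the regions at a gene end, against 9.05%. Differences below are H3K4me3 minus Sox9 for antibody, 10d minus 48h for time and the antibody difference at 10d minus that at 48h for the interaction.

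At 12 or more lists the height differed by 0.50 step by time for Sox9 and 0.25 for H3K4me3 (interaction -0.25), and the width by time for H3K4me3 was -9.63 bp. From peaks of 2 or more steps both heights by time were 0.25. With equal length by p, regions per list differed by 15.2 by antibody and -7.25 by time for Sox9, the percentage of peaks by 0.247 by antibody and 0.0644 by time for H3K4me3, and the height by 2.38 by antibody and by 1.25 and 1.0 by time (interaction -0.25). With equal length at random, regions per list differed by -1.0 by antibody, -3.50 by time for Sox9 and -1.0 for H3K4me3, the percentage by time for H3K4me3 by 0.0136, the height by 18.6 by antibody (0.50 as reported) and by 7.12 and 38.5 by time (interaction 31.4), and the width by 157.5 bp by antibody (17.8 as reported) with an interaction of 148 bp. Geometric mean heights, added after the data were seen, differed by 0.408 by antibody and by 0.139 and 0.232 by time (interaction 0.0934). The cause of these changes was not tested.

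Peak heights tested by antibody region by region gave 6 regions. They gave 0, with 0 separated, when divided by the geometric mean or by the median of the 35 regions, which include the 6. With the replicate block they gave 0, and with any pellet left out 0 to 0, where the smallest p that 8 pellets or 14 libraries can give is too large for so few regions. The replicate block changed no call among the other tests (65.1 regions by antibody; width 17.8 bp by antibody, adjusted p = 0.188, permutation test). Leaving out each pellet moved the antibody difference between 56.1 and 76.4 regions and its interaction between -16.0 and 26.9, the height by time between -0.17 and 0.50 step for Sox9 and 0.0 and 0.33 for H3K4me3 with an interaction of -0.50 to 0.17, and the width by time for H3K4me3 between -9.17 and 11.0 bp. The part of list length in these differences was not tested, and depth is unknown.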
